A study of Rattus norvegicus with 24 samples.

Results

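The circadian clock genes described here are 10 genes of the molecular clock that were measured in kidneys of salt-sensitive rats and of 2 congenic substrains. They are the activators Arntl (now named Bmal1) and Clock, the repressors Per1, Per2, Cry2, Nr1d1 and Nr1d2, and the output factors Dbp, Tef and Hlf. Members were all probe sets of the arrays RAE230A and RAE230B whose platform annotation gave 1 of these symbols, which was 19 of 31142 probe sets and 10 of 13810 genes, with 16 on RAE230A against 3 on RAE230B. Of the 19, 14 passed the filter on low signal (a mean at or above the 30th percentile of their array) and were tested, with at least 1 for each of the 10 genes. The other 5 lay under it (1 each for Clock, Hlf and Nr1d2 and 2 for Tef) and are not used further.

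The ET3x2 and ET3x1 groups were congenic substrains, and the S group was the Dahl salt-sensitive strain SS/jr. By the naming rule for such strains, both substrains carry a segment of a salt-resistant strain R on the S background, so that they share nearly all of their genome with S and are 1 line each. All rats were males that ate 0.4% NaCl until 39 to 41 days of age and 2% NaCl for the next 28 days, and the left kidney was taken at 67 to 69 days. RNA of 3 rats per pool in ET3x2 (pools I to L) and ET3x1 (pools E to H), and of 2 rats per pool in S (pools A to D), was mixed in equal amounts, which gave 12 pools from 32 rats and 24 arrays. The hour of day at which the kidneys were taken is not given in the sources used here. In whole kidney, fewer cells of a type and less RNA per cell cannot be told apart.

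In the molecular clock of mammals, the proteins of Arntl and Clock pair up and switch on genes that carry an E-box, among them the Per and Cry genes, the Nr1d genes and Dbp. The PER and CRY proteins shut that pair off, and the nuclear receptors REV-ERB alpha and beta, made from Nr1d1 and Nr1d2, repress Arntl through ROR elements, so that Arntl peaks at nearly the opposite time of day from its targets. DBP, TEF and HLF bind D-boxes and carry the rhythm to other genes. In kidney the clock is known for its part in daily rhythms of sodium and water transport and in the response to glucocorticoids.

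Strings that match recognition sites of these factors were sought in RefSeq promoters of the assembly GRCr8 (250 bases before to 50 after each annotated start). These promoters were at hand for 9 of the 10 genes in 11 entries, and not for Hlf. Each was searched on both strands for the E-box CACGTG, the D-box TTATGTAA and the core of the ROR element, AGGTCA, and none of these strings contains another. The E-box was in 2 of the 11 entries and in 6.42% of 33469 promoters, the D-box in 1 and in 0.893%, and the ROR core in 2 and in 16.2%. For the ROR core, 2 of 11 is near the share over all promoters. The 5 entries with a match are shown as a description, with the site in capitals, 40 bases on each side and the strand of the gene.
Arntl, ROR core, chr1:176766273-176766358, plus strand: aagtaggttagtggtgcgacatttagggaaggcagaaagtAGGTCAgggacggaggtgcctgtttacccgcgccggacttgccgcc
Nr1d2, ROR core, chr15:9954807-9954892, plus strand: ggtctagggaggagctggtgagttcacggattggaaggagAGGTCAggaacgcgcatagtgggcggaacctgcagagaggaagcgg
Nr1d1 (1 of 2 starts), E-box, chr10:84229600-84229685, minus strand: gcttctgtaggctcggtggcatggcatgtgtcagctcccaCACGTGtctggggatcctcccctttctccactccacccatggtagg
Tef, E-box, chr7:115206589-115206674, plus strand: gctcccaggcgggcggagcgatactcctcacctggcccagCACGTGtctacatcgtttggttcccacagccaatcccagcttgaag
Per2, D-box, chr9:99497138-99497225, minus strand: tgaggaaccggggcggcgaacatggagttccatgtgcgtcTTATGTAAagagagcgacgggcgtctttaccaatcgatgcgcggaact
A match is a description of the letters in this window and was not tested as a binding site. On the same assembly Arntl and Dbp lie on chromosome 1, Cry2 on 3, Tef on 7, Per2 on 9, Per1, Nr1d1 and Hlf on 10, Clock on 14 and Nr1d2 on 15.

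The values are the deposited log2 signals, and levels are compared between pools for 1 probe set at a time. All 6 kidney tubule and glomerulus markers on the arrays (of 7 listed) were above the filter, with a mean level of 12.65 to 12.92 in every pool. Of 4 adrenal markers on the arrays only Th passed the filter, and the adrenal steroid genes Cyp11b1, Star and Cyp17a1 did not. Of 5 fat markers 2 passed, and the blood markers Hbb and Alas2 were both highest in ET3x2 pool K. The 5' minus 3' signal of the actin controls on RAE230A, which drops when RNA is broken, was −1.14 in ET3x2 pool J and −1.27 in each of S pools A and B, with −2.10 to −1.66 in the remaining 9 pools.

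For the activators, no difference between strains passed the test. Arntl, probe set 1370510_a_at, measured 9.09, 8.88, 8.70 and 8.50 in ET3x2 pools I to L, 8.89, 8.96, 8.41 and 8.60 in ET3x1 pools E to H, and 8.25, 8.92, 8.81 and 8.79 in S pools A to D. The 3 strains overlapped, and S pool A was the lowest of the 12. Means were 8.79 ± 0.25 in ET3x2, 8.72 ± 0.26 in ET3x1 and 8.69 ± 0.30 in S (SD, n = 4 each). The log2 difference was 0.10 for ET3x2 against S (95% interval −0.24 to 0.44, limma, adjusted p = 0.861) and 0.02 for ET3x1 against S (−0.32 to 0.36, adjusted p = 0.968).

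Clock, the partner of Arntl, was steadier. Its representative probe set 1389456_at measured 9.41, 9.29, 9.28 and 9.62 in ET3x2 pools I to L, 9.45, 9.52, 9.44 and 9.39 in ET3x1 pools E to H, and 9.41, 9.42, 9.41 and 9.14 in S pools A to D. Pool L was the highest and pool D the lowest, and the strains overlapped. ET3x2 against S was at 0.06 (95% interval −0.14 to 0.25, limma, adjusted p = 0.860). A further tested probe set, 1390199_at, averaged 8.25 ± 0.061 in ET3x2, 8.50 ± 0.18 in ET3x1 and 8.34 ± 0.097 in S (SD, n = 4 each), and ET3x2 against ET3x1 was at −0.25 (SE 0.087, limma, adjusted p = 0.194).

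Among the repressors, Nr1d2, which encodes REV-ERB beta, had the largest difference between strains of any member. Its representative probe set 1390430_at measured 9.09, 9.26, 9.18 and 9.43 in ET3x2 pools I to L, 9.75, 10.02, 9.61 and 9.55 in ET3x1 pools E to H, and 10.54, 9.76, 9.95 and 9.44 in S pools A to D. Every ET3x2 pool lay below every pool of the other strains, though pools L of ET3x2 and D of S all but touched. Means were 9.24 ± 0.14 in ET3x2, 9.73 ± 0.21 in ET3x1 and 9.92 ± 0.46 in S (SD, n = 4 each). The log2 difference was −0.68 for ET3x2 against S (SE 0.18, 95% interval −1.06 to −0.30, unadjusted p = 0.0018), which did not pass after adjustment (limma, adjusted p = 0.174). ET3x2 against ET3x1 was at −0.49 (SE 0.18, limma, adjusted p = 0.210), and ET3x1 against S at −0.19 (SE 0.18, limma, adjusted p = 0.668).

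The Nr1d2 difference of ET3x2 against S kept its direction in all 19 alternatives, but its size and its call depended on single pools. Without S pool D it was −0.84 and passed (limma, adjusted p = 0.0318), and over the 12 fits that left out 1 pool it lay between −0.84 and −0.48, with adjusted p from 0.0318 to 0.504. Another tested probe set of Nr1d2, 1370541_at, measured 8.49, 8.97, 8.49 and 8.44 in ET3x2 pools I to L, 8.87, 9.33, 8.53 and 8.60 in ET3x1 pools E to H, and 9.97, 9.52, 8.95 and 8.08 in S pools A to D. Here the strains overlapped, and S held both the highest and the lowest pool. ET3x2 against S was at −0.53 (SE 0.30, limma, adjusted p = 0.525).

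Nr1d1, which encodes REV-ERB alpha, did not separate the strains. It measured 9.64, 9.80, 9.61 and 9.54 in ET3x2 pools I to L, 9.67, 9.93, 9.53 and 9.61 in ET3x1 pools E to H, and 9.91, 9.78, 9.72 and 9.50 in S pools A to D. Pool F was the highest and pool D the lowest. ET3x2 against S was at −0.08 (95% interval −0.30 to 0.15, limma, adjusted p = 0.830) and ET3x1 against S at −0.04 (−0.26 to 0.18, adjusted p = 0.897).

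The period genes encode proteins that inhibit the activator pair, and Per1 and probe set 1368303_at of Per2 had their lowest mean in ET3x2. Per1 measured 9.74, 9.88, 9.97 and 9.89 in ET3x2 pools I to L, 10.10, 10.16, 9.90 and 9.98 in ET3x1 pools E to H, and 10.73, 10.19, 10.05 and 9.89 in S pools A to D. S pool A stood well above the next pool, and S pool D lay below ET3x2 pool K. Per1 averaged 9.87 ± 0.096 in ET3x2, 10.03 ± 0.12 in ET3x1 and 10.21 ± 0.37 in S (SD, n = 4 each). This put ET3x2 against S at −0.34 (SE 0.14, unadjusted p = 0.0277, limma, adjusted p = 0.383), and −0.17 without pool A.

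Per2, read by probe set 1368303_at, measured 8.89, 8.97, 8.96 and 9.35 in ET3x2 pools I to L, 9.47, 9.54, 9.36 and 9.44 in ET3x1 pools E to H, and 10.18, 9.53, 9.26 and 8.90 in S pools A to D. The 4 ET3x1 pools lay close together and just above all 4 ET3x2 pools, whereas the S pools spread widely and overlapped both. Means were 9.04 ± 0.21 in ET3x2, 9.45 ± 0.076 in ET3x1 and 9.47 ± 0.54 in S (SD, n = 4 each). ET3x2 against S was at −0.42 (SE 0.20, unadjusted p = 0.0482, limma, adjusted p = 0.434), and −0.19 without pool A. ET3x2 against ET3x1 was at −0.41 (SE 0.20, limma, adjusted p = 0.347). The Per2 probe set on RAE230B, 1378560_at, stayed between 9.71 and 10.02 in all 12 pools and had its highest mean in ET3x2 (9.89, against 9.79 in ET3x1 and 9.84 in S), with a difference of 0.05 for ET3x2 against S (95% interval −0.10 to 0.20, limma, adjusted p = 0.868).

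Cry2, a cryptochrome that represses together with the PER proteins, is the member on chromosome 3. It measured 9.22, 9.35, 9.17 and 9.05 in ET3x2 pools I to L, 9.03, 9.08, 9.16 and 9.22 in ET3x1 pools E to H, and 9.20, 9.41, 9.14 and 9.39 in S pools A to D, and the strains overlapped. The log2 difference was −0.09 for ET3x2 against S (95% interval −0.27 to 0.10, limma, adjusted p = 0.747) and −0.16 for ET3x1 against S (−0.35 to 0.03, adjusted p = 0.442). The further probe set of Cry2, 1372548_at, was at −0.04 for ET3x2 against S (limma, adjusted p = 0.905).

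The 3 output factors all had their highest level in S pool A. Dbp measured 8.78, 8.72, 8.76 and 8.78 in ET3x2 pools I to L, 9.003, 9.36, 8.87 and 8.56 in ET3x1 pools E to H, and 10.09, 9.25, 9.06 and 8.79 in S pools A to D. All 4 S pools exceeded all 4 ET3x2 pools, pool D only just, while ET3x1 spanned both. Means were 8.76 ± 0.030 in ET3x2, 8.95 ± 0.33 in ET3x1 and 9.30 ± 0.56 in S (SD, n = 4 each). The log2 difference was −0.54 for ET3x2 against S (SE 0.22, unadjusted p = 0.0264, limma, adjusted p = 0.378) and −0.35 for ET3x1 against S (SE 0.22, limma, adjusted p = 0.503). Without pool A these were −0.27 and −0.08.

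Tef, the thyrotroph embryonic factor, was read on the other array, RAE230B. It measured 10.40, 10.64, 10.55 and 10.51 in ET3x2 pools I to L, 10.61, 10.85, 10.37 and 10.56 in ET3x1 pools E to H, and 11.35, 10.79, 10.55 and 10.51 in S pools A to D. Pool A stood apart, and the other S pools lay among those of the substrains. ET3x2 against S was at −0.28 (SE 0.16, limma, adjusted p = 0.579), and −0.10 without pool A.

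Hlf, the hepatic leukaemia factor, measured 8.33, 8.49, 8.58 and 8.33 in ET3x2 pools I to L, 8.46, 8.72, 8.33 and 8.38 in ET3x1 pools E to H, and 9.29, 8.65, 8.43 and 8.46 in S pools A to D. Pool A was again the highest, followed by pools F and B. The difference of ET3x2 against S was −0.28 (SE 0.16, limma, adjusted p = 0.522), and −0.08 without pool A.

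**Figure D1:**
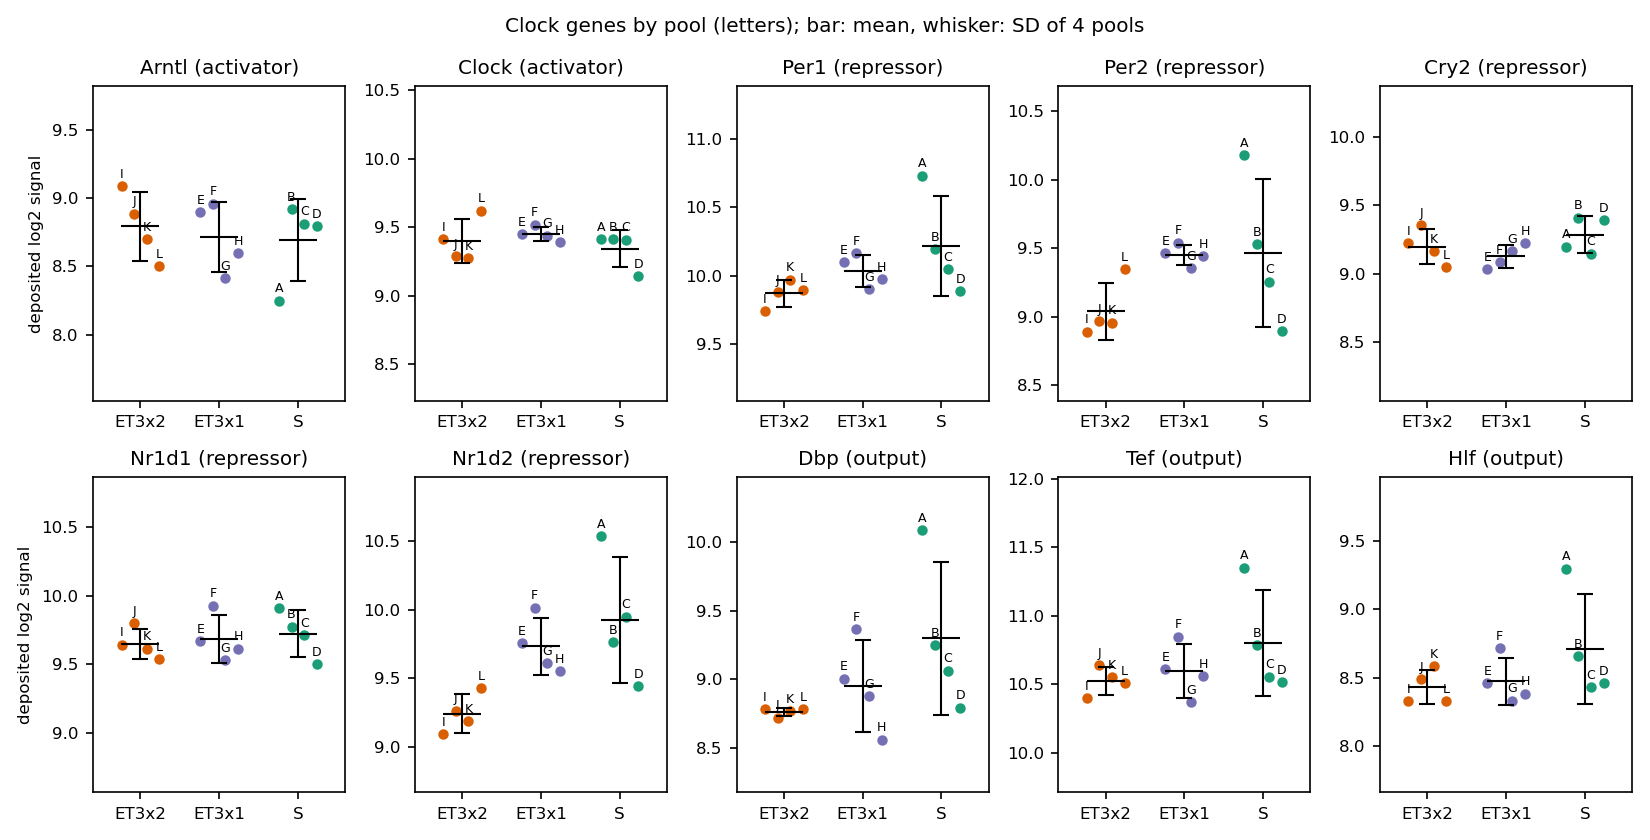
Deposited log2 signal of the representative probe set of each of the 10 clock genes, with 1 point per pool (letters) in ET3x2, ET3x1 and S, a bar at the mean and whiskers of 1 SD of 4 pools. S pool A is the highest point for Per1, Per2, Nr1d2, Dbp, Tef and Hlf and the lowest for Arntl, and the 4 ET3x2 pools lie below all others for Nr1d2.

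Over all members, no probe set was called in any comparison at an adjusted p under 0.05 (limma). For ET3x2 against S, 0 of 14 were called, against 0.344% of all 21799 tested, and 4 of 14 (Nr1d2, Dbp, Per1 and Per2, all lower) had an unadjusted p under 0.05, against 10.9% of all tested. For ET3x1 against S, 0 of 14 were called, against 0.44%, and 0 had an unadjusted p under 0.05, against 11.8%. For ET3x2 against ET3x1, 0 of 14 were called, against 1.48%, and 2 (Nr1d2 and Clock, both lower) had an unadjusted p under 0.05, against 13.1%. The median log2 difference of the 14 was −0.19 in ET3x2 against S and −0.13 in ET3x1 against S, where that of all tested probe sets was 0.025 and −0.0047. Without pool A these medians of the 14 were −0.10 and −0.02, and 1 of 14 had an unadjusted p under 0.05 in ET3x2 against S, whereas without pool D 7 did. Without pools A, B and J the median in ET3x1 against S was 0.05. In ET3x2 against ET3x1 it was −0.06, against 0.032 for all tested. Both comparisons with S share the S pools.

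**Figure D2:**
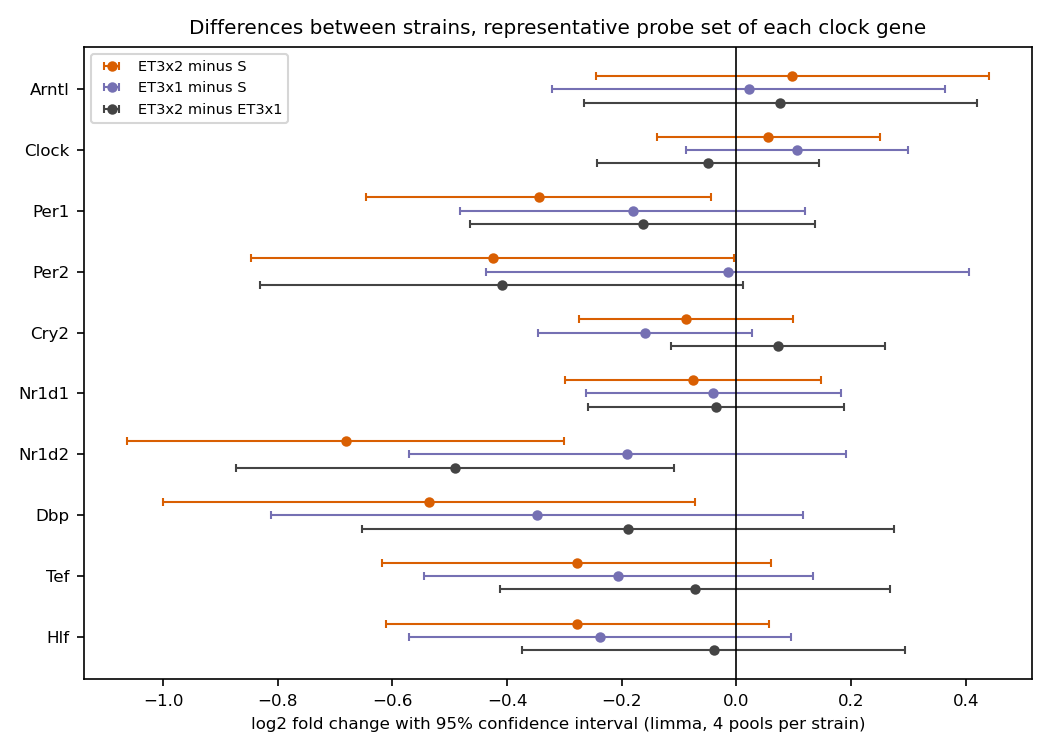
Log2 fold change of each clock gene's representative probe set with its 95% confidence interval from limma (4 pools per strain), for ET3x2 minus S, ET3x1 minus S and ET3x2 minus ET3x1. Intervals of Nr1d2, Dbp, Per1 and Per2 lie below 0 for ET3x2 minus S before adjustment, and none of the 30 differences passed after it.

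Several of these genes varied more between pools of the same strain than most probe sets did. The SD within strains was 0.38 for Dbp, 0.34 for Per2 and 0.30 for Nr1d2, against a median of 0.13 over the tested probe sets of RAE230A, which put them at percentiles 98.5, 97.8 and 96.9 of that array. Arntl (SD 0.27, percentile 94.99), Hlf (0.26, percentile 94.3) and Per1 (0.23, percentile 90.1) also varied more than most, as did Tef (0.26, percentile 94.8) on RAE230B, where the median was 0.11. Nr1d1 (0.15, percentile 63.1), Clock (0.12, percentile 41.8) and Cry2 (0.12, percentile 36.2) lay nearer the middle. Of the 14 tested probe sets, 4 were at or above the 95th percentile, with Arntl just under it.

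S pool A, which held RNA of 2 rats, carried much of that variation. It had the highest level of the 12 pools for 6 of the 10 genes, and 12.9% of all tested probe sets were highest in this pool. Relative to the median of the other 11 pools, pool A was at 1.30 for Dbp, 0.99 for Nr1d2, 0.83 for Hlf and Per2, 0.80 for Tef and 0.76 for Per1. It was at 0.27 for Nr1d1, 0.03 for Cry2 and −0.0021 for Clock, and at −0.56 for Arntl, the lowest pool for that gene, where 10.8% of all tested probe sets were lowest in pool A. Among the other 11 pools, ET3x1 pool F was the highest for Dbp, Tef, Hlf, Nr1d1, Nr1d2 and Per2. Over all 21799 tested probe sets, pool F was the highest of the 12 pools for 3169, more than any other pool. In pool F, unlike in pool A, Arntl was high, at 8.96.

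**Figure D3:**
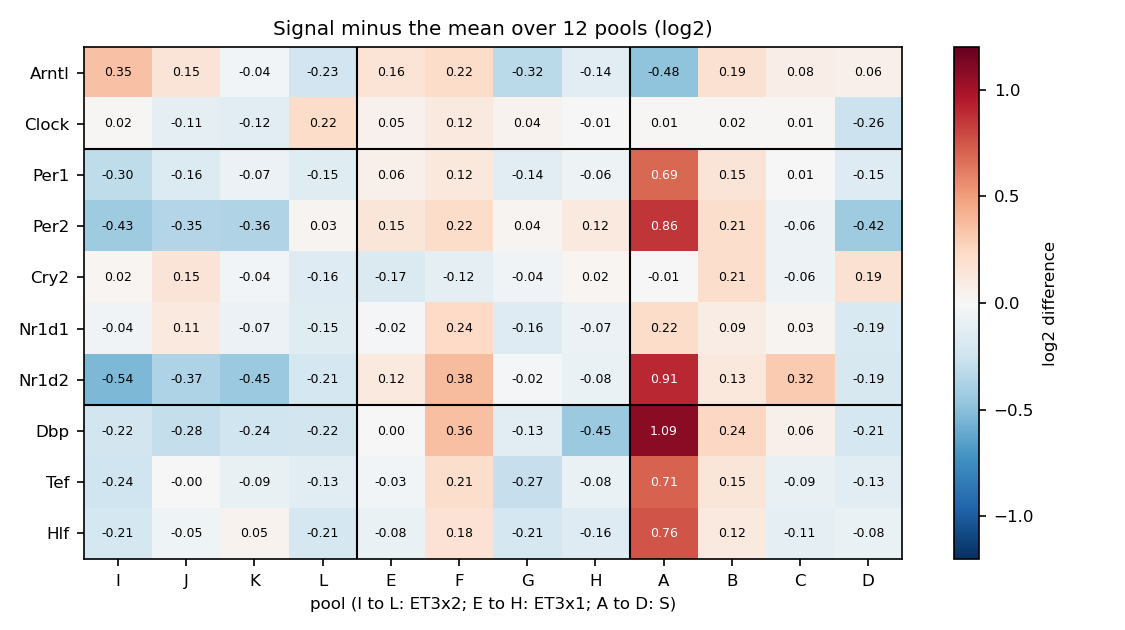
Log2 signal of each clock gene minus its mean over the 12 pools, with pools in columns (I to L ET3x2, E to H ET3x1, A to D S), genes in rows and lines between activators, repressors and outputs. Pool A has the strongest positive values for the period genes, Nr1d2 and the outputs beside −0.48 for Arntl, whereas pool F is positive in 9 of the 10 genes.

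Some genes of other lists were also highest in pool A, and their part in the clock pattern was not tested. Of 15 tested genes known to be induced by glucocorticoids, a list that includes Per1, 8 were highest in pool A (53.3%, against 12.9% of all tested probe sets). Among them were Tsc22d3 at 10.97, where the other 11 pools reached at most 10.47, and Fkbp5 at 8.88, where they reached at most 8.45. Relative to the median of the other 11 pools, Pdk4 (0.02) and Lcn2 (0.01) hardly differed in pool A, and Mt2A was lower (−0.10). Of 10 temperature-responsive genes 4 were highest there, among them Hspa1a, a heat shock chaperone, at 10.55 against at most 10.27 elsewhere. The actin 5' minus 3' signal was −1.27 in pools A and B and −1.14 in pool J. In these pools Dbp was at 10.09, 9.25 and 8.72, Nr1d1 at 9.91, 9.78 and 9.80, and Tef at 11.35, 10.79 and 10.64. The part of this signal in the pattern of pool A was not tested. Across the 12 pools, no member's Pearson correlation with that signal passed after adjustment over 10 relations (permutation test). The strongest was Nr1d1 (Pearson r = 0.73, permutation p = 0.00847, adjusted p = 0.0847). Its Spearman's rho was 0.78 (permutation p = 0.00467), and rho was not adjusted over the 10 relations.

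Whether the arms of the clock moved together was read from correlations across the 12 pools, first for Arntl with the 9 other genes. All genes but Tef were read on the same RAE230A array of each pool and so share its error. None of the 9 relations passed (permutation tests, two-sided, adjusted over 9 relations). The strongest was Per2, with r = −0.56 (permutation p = 0.0603, adjusted p = 0.468) and Spearman's rho = −0.16 (adjusted p = 0.900). Per1 (r = −0.46), Nr1d2 (−0.41), Hlf (−0.37), Tef (−0.34), Dbp (−0.32) and Clock (−0.16) were negative as well, and Cry2 (0.21) and Nr1d1 (0.13) positive. Within strains the values were close to these, at −0.56 for Per2 and −0.29 for Dbp.

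Without pool A the sign turned for 5 of the 7 negative relations of Arntl, with r at 0.17 for Per1, 0.03 for Nr1d2, 0.42 for Dbp, 0.45 for Tef and 0.45 for Hlf. It stayed negative for Per2 (−0.20) and Clock (−0.18). Nr1d1 was then at 0.63 (permutation p = 0.0369, adjusted p = 0.332). Without the 2 pools farthest from the median of Arntl, A and G, Dbp was at 0.49 and Tef at 0.24. None of these passed after adjustment.

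Most repressors varied together with the outputs across pools, and Arntl and Clock mostly did not. All 45 pairs of the 10 genes were examined after the values had been seen, and 20 passed (permutation test of Pearson's r, adjusted over 45), against 6 by Spearman's rho. Of 15 pairs of a repressor and an output, 12 passed, 14 were positive and the median r was 0.80. All 3 pairs of outputs passed (r from 0.91 to 0.97), as did 4 of 10 pairs of repressors, while 1 of 10 pairs of an activator and a repressor and 0 of 6 pairs of an activator and an output did. That 1 was Clock with Cry2, at r = −0.69 (adjusted p = 0.0265, permutation test), which was −0.46 without pools D and L.

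Among the pairs that passed, some were of genes read on different arrays. Tef and Hlf, read on different arrays, had r = 0.97 (adjusted p = 0.00135, permutation test) and rho = 0.84, and r = 0.82 without pools A and F. Per1 and Tef, also on different arrays, had r = 0.95 (adjusted p = 0.00157, permutation test) and rho = 0.73 (adjusted p = 0.0521), and r = 0.78 without pools A and I. Of pairs on the same array, Per1 and Hlf had r = 0.94 and Per1 and Nr1d2 r = 0.90. Per1 and Dbp had r = 0.93 (adjusted p = 0.00248, permutation test), and 0.83 without pools A and I. Nr1d2 and Dbp had r = 0.89 (adjusted p = 0.00225, permutation test) and rho = 0.84, and r = 0.79 without pools A and I.

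Some of these relations were weaker in the remaining pools. Dbp with Tef and with Hlf had r = 0.91 each over 12 pools, but 0.48 and 0.49 without pools A and F, and rho = 0.48 and 0.52, neither of which passed (adjusted p = 0.223 and 0.177, permutation test). Within strains 12 of 45 pairs passed and without pool A 9 did. Those 9 were Per1 with Per2, Nr1d2, Dbp, Tef and Hlf, Nr1d2 with Per2 and Dbp, Tef with Nr1d1, and Tef with Hlf. Over the 9 pools without A, B and J, 0 of 45 passed by r or by rho (permutation test), although 34 were positive and Tef with Hlf was at 0.86.

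**Figure D4:**
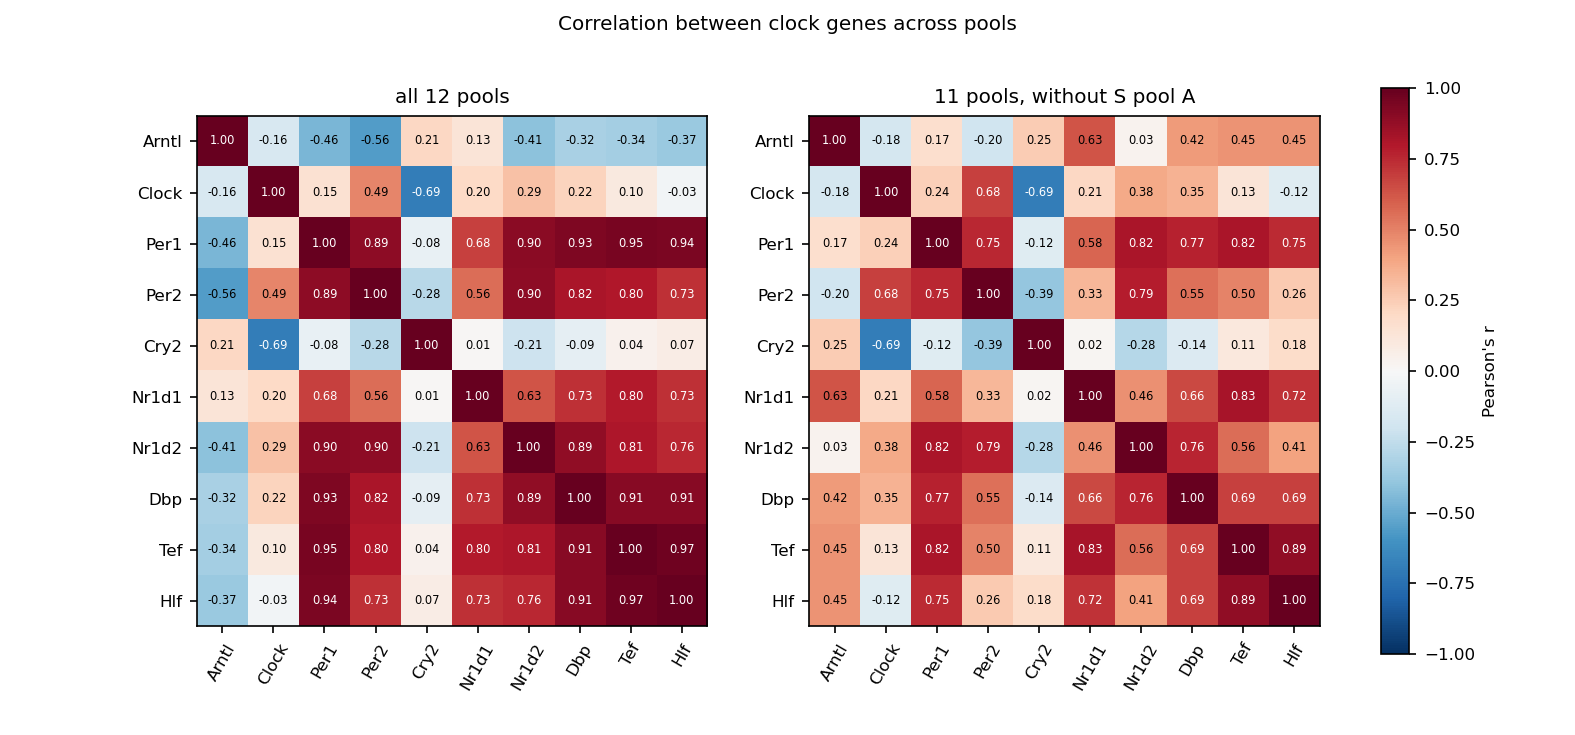
Pearson's r between each pair of clock genes across all 12 pools (left) and across 11 pools without S pool A (right), on a colour scale of −1 to 1. The repressors other than Cry2 form a positive block with Dbp, Tef and Hlf in both panels, and the Arntl row turns from mostly negative to mostly positive without pool A.

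Averaged over the genes of an arm, as signal minus the mean over 12 pools, the repressors were at −0.18 ± 0.064 in ET3x2, 0.03 ± 0.10 in ET3x1 and 0.15 ± 0.29 in S (SD, n = 4 each). Outputs were at −0.15 ± 0.062 in ET3x2, −0.05 ± 0.22 in ET3x1 and 0.21 ± 0.45 in S. Activators were at 0.03 ± 0.11 in ET3x2, 0.02 ± 0.15 in ET3x1 and −0.05 ± 0.15 in S. Pool A was at 0.53 for repressors, 0.85 for outputs and −0.24 for activators, pool F at 0.17, 0.25 and 0.17, and pool I at −0.26, −0.22 and 0.18. Repressors and outputs had r = 0.93 across pools, and 0.80 without pool A, as a description. Activators had r = −0.28 with both, and 0.34 with repressors and 0.55 with outputs without pool A.

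**Figure D5:**
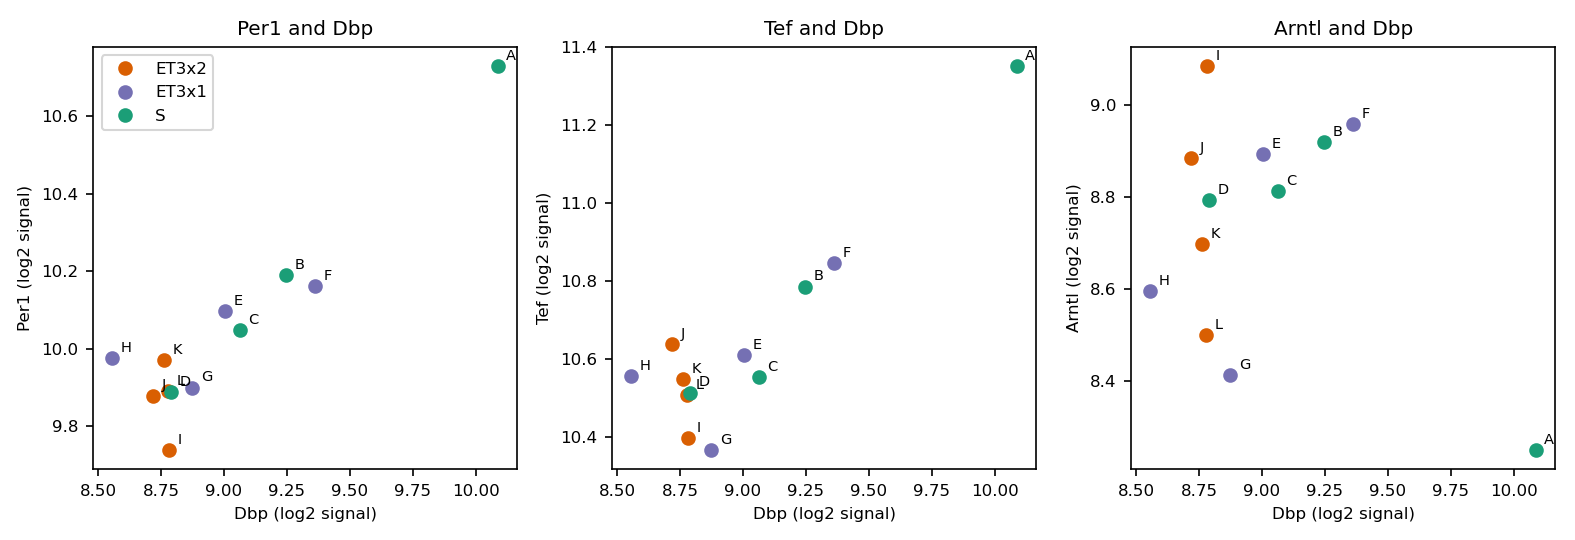
Log2 signal of Per1, Tef and Arntl (vertical axes) against Dbp (horizontal axis), with 1 point per pool, coloured by strain (ET3x2, ET3x1, S) and lettered. Per1 and Tef increase with Dbp, with pool A at the upper right and pools B and F next, whereas Arntl is lowest in pool A.

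Probe sets of the same gene did not always follow each other. The 2 tested probe sets of Nr1d2 had r = 0.79 across 12 pools (adjusted p = 0.0102 over 4 genes, permutation test) and 0.61 without pool A, which no longer passed (adjusted p = 0.091, permutation test). Those of Clock had r = 0.30, those of Cry2 −0.18 and those of Per2 −0.49 (permutation p = 0.113), none of which passed. The values given for Per2 elsewhere are those of 1368303_at.

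By likeness across the 12 pools among 21799 tested probe sets, given as a description, Dbp had some other clock genes near the top. With Dbp itself at rank 1, Per1 ranked 3rd, Hlf 10th, Tef 15th, and Nr1d2 34th and 53rd with its 2 probe sets. Per2 ranked 151st and 15021st with its 2 probe sets, and Nr1d1 640th. Cry2 ranked 1788th and 13032nd, Clock 6554th and 7830th, and Arntl 16898th. The non-member genes most like Dbp were Zbed4 (r = 0.93), Slc25a25 (0.92), Irx3 (0.92), Usp2 (0.92), a deubiquitinase that cycles with the clock, and Fat1 (0.92). Those least like it were Rem2 (−0.92), Krt4 (−0.91), Barhl2 (−0.91), Hoxc4 (−0.89) and Tp53i11 (−0.89). Without pool A the values for these 10 genes lay between 0.71 and 0.82 for the first 5 and between −0.85 and −0.61 for the last 5.

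For Arntl the most similar genes were Gga1 (r = 0.93), Dlx3 (0.83), Msto1 (0.82), Coq4 (0.80) and Bst1 (0.78). No other member ranked above 5562nd, which was Per2 by probe set 1378560_at (r = 0.25). The least similar were Zfp148 (−0.86), Neurod2 (−0.82), Olfml2a (−0.81), Arih1 (−0.81) and Sfpq (−0.78), an RNA-binding protein that also acts in PER complexes. The member probe set nearest the opposite end was also of Per2, 1368303_at, 218th from the bottom, so the 2 probe sets of this gene lay far apart.

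Further genes of the clock pathway were taken from a list of 29, of which 24 were on the arrays and 21 were tested. In ET3x2 against ET3x1, 1 of 21 was called, against 1.48% of all tested, and 5 had an unadjusted p under 0.05, against 13.1%. That gene was Rora, the nuclear receptor that activates Arntl at the elements REV-ERB proteins repress. Rora measured 7.29, 8.01, 7.04 and 7.15 in ET3x2 pools I to L, 8.27, 8.51, 8.28 and 8.06 in ET3x1 pools E to H, and 8.44, 7.94, 7.65 and 7.67 in S pools A to D. Every ET3x2 pool was below every ET3x1 pool, and pool J of ET3x2 lay within the range of S. Rora fell by 0.91 on the log2 scale in ET3x2 against ET3x1 (SE 0.21, limma, adjusted p = 0.0397). The call ended without pool B, C, E, F, G, H, I, K or L (adjusted p from 0.0509 to 0.165). Pools B and C are S pools, and without either of them the difference itself stayed at −0.91. ET3x2 against S was at −0.55 (SE 0.21, limma, adjusted p = 0.355), and ET3x1 against S at 0.35 (SE 0.21, limma, adjusted p = 0.618).

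In ET3x2 against S, 0 of those 21 genes were called (limma), against 0.344% of all tested, and 7 had an unadjusted p under 0.05, against 10.9%. Prkaa2, the AMP-activated kinase subunit that marks CRY proteins for breakdown, ranged from 9.41 to 10.10 in ET3x2 and from 10.27 to 11.03 in S, without overlap. Its log2 difference was −0.87 (SE 0.18, limma, adjusted p = 0.0890), and it passed without pool D (adjusted p = 0.0221) or without pool J (0.0439). Csnk2b, a casein kinase 2 subunit, was at 0.37 (SE 0.10, adjusted p = 0.201), and Npas2, a relative of Clock that can take its place, at 0.26 (SE 0.084, adjusted p = 0.292). In ET3x1 against S, 0 of 21 were called (limma), against 0.44%, and 2 had an unadjusted p under 0.05, against 11.8%, of which Bhlhe40, a repressor of E-box genes, was at −0.32 (SE 0.11, adjusted p = 0.251). The median log2 difference of the list was −0.0013 in ET3x2 against S, −0.0027 in ET3x1 against S and −0.03 in ET3x2 against ET3x1.

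Of 18 tested genes known as clock outputs in kidney or liver, out of 23 listed, 0 were called in any comparison (limma). Of all tested probe sets, 0.344% were called in ET3x2 against S, 0.44% in ET3x1 against S and 1.48% in ET3x2 against ET3x1. Those with an unadjusted p under 0.05 numbered 1 in ET3x2 against S, 4 in ET3x1 against S and 3 in ET3x2 against ET3x1, against 10.9%, 11.8% and 13.1% of all tested. Usp2, here by its brighter probe set and not the one whose r with Dbp is given above, was at −0.26 in ET3x2 against S (SE 0.11, limma, adjusted p = 0.395). The r of this probe set with Dbp was 0.38. Avpr2, the vasopressin V2 receptor, was at 0.24 in ET3x2 against ET3x1 (SE 0.081, limma, adjusted p = 0.184) and −0.21 in ET3x1 against S (adjusted p = 0.296). Por, the electron donor of cytochrome P450 enzymes, was at 0.26 in ET3x2 against ET3x1 (SE 0.10, limma, adjusted p = 0.252). The water channel gene Aqp2 was at −0.18 in ET3x1 against S (SE 0.075, limma, adjusted p = 0.333). In pool A, 6 of the 18 had their highest value (33.3%, against 12.9% of all tested probe sets). Among them were Noct, a deadenylase with a strong daily rhythm, at 9.26 against at most 8.67 in the other pools, and the cell cycle kinase Wee1 at 8.96 against at most 8.53. Lowest in pool A were 2 of the 18, Cdkn1a at 9.66 and Lpin1 at 7.49 (11.1%, against 10.8% of all tested probe sets).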

How the data were processed

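Per the labels, total RNA of whole left kidneys was pooled, reverse transcribed from an oligo(dT) primer, labelled with biotin and hybridised to Affymetrix RAE230A and RAE230B arrays. The authors deposited 1 number for each probe set in each pool. From its range, this deposited number was taken as a log2 signal, at 4.97 to 15.2 on RAE230A and 4.10 to 14.3 on RAE230B. Background correction, normalisation and summarisation are not given in the sources used here. Array column medians lay between 8.49 and 8.60 and between 7.55 and 7.62, so no further scaling was applied. Arrays give no read depth, and their number limits the precision.

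The 57 control probe sets of each array and those with a mean below the array's 30th percentile (7.52 and 6.85) were left out, which left 11106 and 10693. limma 3.58.1 in R 4.3.3 (lmFit, then eBayes with a trend) was fitted to the 12 pools of each array without covariates. P-values are two-sided and Benjamini-Hochberg adjusted within array and contrast, with a threshold of 0.05, and counts of both arrays were added. The spread behind them is that between pools, from other rats each, plus that of the assay. Each gene is represented by its tested probe set with the highest mean, RAE230A first. Correlations used 100000 permutations with Python 3.11.15 and numpy 2.4.6, and figures matplotlib 3.10.9. Tested on simulated data for ET3x2 against S, the fit recovered 75% of log2 changes of 0.5 on RAE230A and 80% on RAE230B. For log2 changes of 1 it recovered 98% on each array. The changed probe sets were drawn at random from those tested, and their number was set in the simulation. The adjusted p depends on that number, which is not known for the data. These shares therefore need not hold in the data, in particular for members with a wider spread within strains, such as Dbp, Per2 and Nr1d2.

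The members and gene lists were chosen with earlier results of these data known. All 10 members are named, called or not, up to 4 genes of each other list (called first, then smallest p), and the 5 non-members most and the 5 least like Arntl and Dbp. Usp2, Sgk1, Pdk4 and Per1 stand in more than 1 list. Alternatives were the filter, quantile normalisation, an untrended prior, array weights, the actin signal as covariate, and leaving out pools. The 45 pairs, probe sets of 1 gene and relations with the actin signal were added after the values were seen. So were the counts of genes highest or lowest in pool A. Bhlhe40 was named then, as were Noct, Wee1, Fkbp5, Hspe1, Cirbp, Rbm3, Cdkn1a and Lpin1 for their level in pool A.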

Additional observations from a re-analysis of the deposited data

Results flagged for a closer look

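Among 39 groups of 4 pools checked for a pool that stands apart, 30 of them of the clock genes, 2 had such a pool (Dixon's ratio above its 95% critical value), and chance gives about 1 in 20. Clock in S pool D, at 9.14, lay below the other 3 S pools, which were at 9.41 to 9.42. Per2 in ET3x2 pool L, at 9.35, lay above the other 3 ET3x2 pools, which were at 8.89 to 8.97. The cause of neither was tested.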

How the results depend on the processing

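No paired analysis was possible because the pools carry different letters in each strain. The 12 pools limit what can be seen, the spread between pools was widest in S for 8 of the 10 genes, and pool size differed between strains (2 rats in S, 3 in the substrains). In ET3x2 against S, 1 member was called instead of 0 with array weights (Nr1d2) and 1 with the actin covariate (Nr1d2), and 0 to 1 when 1 pool was left out. In ET3x2 against ET3x1, 1 was called with array weights (Nr1d2). In no alternative was a member called in ET3x1 against S, and none of the 9 correlations with Arntl passed in any. Arm levels moved by less than the SD between pools in all 153 recomputations, but some differences between strains turned sign with 1 pool left out. The repressor arm in ET3x1 against S ranged from −0.217 to 0.0122. In ET3x2 against ET3x1, the output arm ranged from −0.158 to 0.000631 and the activator arm from −0.0385 to 0.0654. With 1 pool left out, the other arm differences kept their sign. Without pools A, B and J, the output genes Dbp (0.0231), Tef (0.0612) and Hlf (0.0263) all turned positive in ET3x1 against S. The cause of the changes listed here was not tested.

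Without pools A, B and J, the differences of ET3x1 against S turned sign for Arntl (−0.088), Per1 (0.0655), Per2 (0.374), Nr1d1 (0.0772), Nr1d2 (0.0365), Dbp (0.0231), Tef (0.0612) and Hlf (0.0263), and that of ET3x2 against S for Arntl (−0.0421). The actin covariate turned Per2 (0.118) and Nr1d1 (0.0477) in ET3x1 against S. Array weights turned Clock in ET3x2 against S (−0.0134) and Hlf in ET3x2 against ET3x1 (0.024). With 1 pool left out, ET3x1 against S ranged from −0.127 to 0.122 for Arntl, −0.122 to 0.0214 for Nr1d1, −0.35 to 0.0147 for Nr1d2 and −0.205 to 0.223 for Per2. ET3x2 against S ranged from −0.0502 to 0.195 for Arntl and −0.0179 to 0.097 for Clock. ET3x2 against ET3x1 ranged from −0.0239 to 0.174 for Arntl, −0.0907 to 0.0413 for Hlf, −0.0872 to 0.0461 for Nr1d1 and −0.148 to 0.0115 for Tef.

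The correlation with Arntl turned sign without pools A, B and J for Per1 (0.109), Nr1d2 (0.0414), Dbp (0.435), Tef (0.370) and Hlf (0.389). Without the 2 pools farthest from the median of Arntl it did so for Per1 (0.0759), Nr1d2 (0.0897), Dbp (0.493), Tef (0.238) and Hlf (0.325), and with the mean of all tested probe sets for Clock (0.0768) and Cry2 (−0.02). With 1 pool left out it ranged from −0.273 to 0.0153 for Clock, −0.435 to 0.423 for Dbp, −0.533 to 0.451 for Hlf, −0.0257 to 0.63 for Nr1d1, −0.543 to 0.0324 for Nr1d2, −0.587 to 0.17 for Per1 and −0.544 to 0.45 for Tef.

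Of the other clock genes, 1 was called in ET3x1 against S without pools A, B and J. In ET3x2 against S, 2 were called with array weights, 2 with the actin covariate and 0 to 1 with 1 pool left out. In ET3x2 against ET3x1, 2 were called with quantile normalisation, 3 with array weights and 0 to 1 with 1 pool left out. Of the clock outputs, 2 were called in ET3x2 against ET3x1 with array weights. Of the glucocorticoid-induced genes, in ET3x2 against ET3x1, 1 was called with quantile normalisation, 2 with array weights, 1 with the actin covariate, 1 without pools A, B and J, and 0 to 1 with 1 pool left out. Of the temperature-responsive genes, in ET3x2 against S, 2 were called with array weights, 1 with the actin covariate and 0 to 2 with 1 pool left out.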

Other observations

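Lists of glucocorticoid-induced and temperature-responsive genes were described by strain as well. Of 15 tested glucocorticoid-induced genes, 0 were called in any comparison (limma). Of all tested probe sets, 0.344% were called in ET3x2 against S, 0.44% in ET3x1 against S and 1.48% in ET3x2 against ET3x1. In the same order, 1, 1 and 2 of the 15 had an unadjusted p under 0.05, against 10.9%, 11.8% and 13.1% of all tested. Klf9, a transcription factor that glucocorticoids induce, averaged 11.24 ± 0.17 in ET3x2, 11.93 ± 0.22 in ET3x1 and 11.48 ± 0.41 in S (SD, n = 4 each). Its log2 difference in ET3x2 against ET3x1 was −0.69 (SE 0.17, limma, adjusted p = 0.0754), and it passed without pool A (adjusted p = 0.0213) and without pool D (0.0327). Both are S pools, so the difference itself stayed at −0.69. Its SE, from a spread that all strains share, was then 0.12 without pool A and 0.15 without pool D. Tsc22d3, which encodes the glucocorticoid-induced leucine zipper, was at −0.43 in ET3x2 against S (SE 0.21, limma, adjusted p = 0.446).

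Of 10 temperature-responsive genes, 0 were called in any comparison (limma), against the same shares of all tested (0.344%, 0.44% and 1.48%). In ET3x2 against S, 2 had an unadjusted p under 0.05, both lower, against 10.9% of all tested. In ET3x1 against S 1 did, against 11.8%, and in ET3x2 against ET3x1 1 did, against 13.1%. Hspa1a, an inducible HSP70 chaperone, averaged 9.61 ± 0.14 in ET3x2, 9.85 ± 0.096 in ET3x1 and 10.16 ± 0.33 in S (SD, n = 4 each), and was at −0.55 in ET3x2 against S (SE 0.13, limma, adjusted p = 0.143). Dnaja1, a co-chaperone of HSP70, was at −0.38 in the same comparison (SE 0.11, limma, adjusted p = 0.201). Without pool D both passed, at −0.69 (adjusted p = 0.0174) and −0.48 (adjusted p = 0.0498).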
